A study of Mus musculus with 6 samples.

Results

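The genes of the G1/S transition and of DNA replication were examined as 47 listed members among the 55335 genes of the deposited table. These members were read in all 6 libraries and chosen by name for their textbook roles, with earlier results of these data known. They cover 9 roles, from the licensing of replication origins to the E2F factors and cyclin E that switch the programme on. The libraries were bulk RNA-seq of CD4 T cells taken by sorting from mouse colon lamina propria. The cells descend from naive splenic CD4 T cells of TcfGFP mice, in which GFP reports the locus of Tcf7, given to Rag1 KO hosts, which have no lymphocytes of either the T or the B lineage, to induce colitis. All cells of both gates thus shared the reporter, the host genotype and the colitis, and the gates were GFP-positive cells (labelled TCF7+ and stem-like) and GFP-negative cells (labelled TCF7- and effector), with 3 libraries each. The sources used here do not give age, the number of mice, pooling of mice or the time after transfer. Because nothing says that replicates came from separate mice, p-values capture the spread among these samples alone, which may be technical.

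Cells that leave G1 release E2F factors from the retinoblastoma protein, and E2F then raises the genes whose products license origins, build the replicative helicase, make deoxynucleotides and copy DNA. Cyclin E with its kinase partner amplifies that switch, and most of these transcripts peak around the start of S phase. T cells rest without dividing as naive or memory cells and express these genes strongly when antigen drives clonal expansion. In bulk RNA, fewer cells in cycle and less of each transcript per cell cannot be told apart.

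Library totals ran from 4309500 to 7462076 counts. Tcf7 itself stood at 121.1, 140.5 and 71.3 CPM (counts scaled to a common normalized library total) in GFP-negative and at 237.4, 183 and 140.8 CPM in GFP-positive replicates 1 to 3, so the gates did not overlap but the margin was narrow. All 6 CD4 T cell markers were detected in every library, at 417 to 1447 CPM, while of the B cell markers Ms4a1 and Pax5 were at 0 in all 6 and Cd79a and Cd79b at 0 to 1.36 CPM. Summed over their list, 8 myeloid markers held 0.652% of the counts of GFP-positive replicate 3, where all 8 were detected, and 0.0132% to 0.0184% of those of the other libraries. In those 5 libraries Lyz2 stood at 65.8 to 100.4 CPM, S100a8 at 30.9 to 56.0 CPM and the macrophage marker Adgre1 at 0. The remaining myeloid markers stood there at 0 to 15.4 CPM. The CD8 marker Cd8a stood at 113.4, 55.3 and 31.4 CPM in GFP-negative and at 46.1, 25.3 and 10.3 CPM in GFP-positive replicates 1 to 3, and the list of Cd8a and Cd8b1 summed to 0.00326% to 0.0123% and to 0.00131% to 0.00536% of the counts of the gates.

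Many replication genes carry E2F-type sites near their start, so the promoters of members whose gates did not overlap are shown with these letters. The letters searched were TTCGCGC or TTGGCGC or TTCCCGC, on both strands, in RefSeq windows (GRCm38.p6) from 250 bases before to 50 bases after each start. Such a run of 7 letters was present in 24 of 45 windows of the members (53.3%), against 2652 of all 32851 windows (8.07%) and 1555 of 10605 windows of tested genes (14.7%). By gene, 22 of the 39 members with a window held one (56.4%), against 9.2% of all genes with a window and 17.3% of tested genes with a window. Base composition was not equalized between these sets, and a match is a description of the letters only. No window was given for Mcm4, Gins1, Gins2, Gins4, Pole, Rfc2, Tipin and Ccne2.

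The 4 windows printed are those of the non-overlapping members with a match and the smallest edgeR p: Mcm6, a helicase subunit, Cdc6, a licensing factor, Prim1, the catalytic primase subunit, and Rpa2, a subunit of the single-strand binding protein. Each is written from 5′ to 3′ on the gene's own strand, and capitals mark the matched letters, with the base 250 before the start first. The Mcm6 window is at chr1:128359656-128359955 (minus strand), the Cdc6 window at chr11:98907901-98908200, the Prim1 window at chr10:128014965-128015264 and the Rpa2 window at chr4:132768110-132768409 (the last 3 on the plus strand).
Mcm6: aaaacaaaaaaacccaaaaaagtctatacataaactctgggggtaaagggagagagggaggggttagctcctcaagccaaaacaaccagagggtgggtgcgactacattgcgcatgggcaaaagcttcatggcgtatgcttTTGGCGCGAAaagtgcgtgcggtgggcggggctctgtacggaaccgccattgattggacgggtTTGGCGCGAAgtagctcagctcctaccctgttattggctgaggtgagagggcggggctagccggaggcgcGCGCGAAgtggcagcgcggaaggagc
Cdc6: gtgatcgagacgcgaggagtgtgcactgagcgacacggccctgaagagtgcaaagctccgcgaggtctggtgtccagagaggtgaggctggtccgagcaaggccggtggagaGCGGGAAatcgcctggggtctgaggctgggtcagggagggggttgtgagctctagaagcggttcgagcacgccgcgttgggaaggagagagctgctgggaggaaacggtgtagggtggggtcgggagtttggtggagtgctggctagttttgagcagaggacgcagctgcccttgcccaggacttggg
Prim1: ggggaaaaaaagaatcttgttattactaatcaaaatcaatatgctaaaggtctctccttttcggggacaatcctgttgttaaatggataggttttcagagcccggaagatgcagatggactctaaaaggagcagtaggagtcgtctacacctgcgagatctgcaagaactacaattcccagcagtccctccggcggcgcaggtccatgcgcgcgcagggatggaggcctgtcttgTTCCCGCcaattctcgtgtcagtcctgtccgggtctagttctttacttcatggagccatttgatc
Rpa2: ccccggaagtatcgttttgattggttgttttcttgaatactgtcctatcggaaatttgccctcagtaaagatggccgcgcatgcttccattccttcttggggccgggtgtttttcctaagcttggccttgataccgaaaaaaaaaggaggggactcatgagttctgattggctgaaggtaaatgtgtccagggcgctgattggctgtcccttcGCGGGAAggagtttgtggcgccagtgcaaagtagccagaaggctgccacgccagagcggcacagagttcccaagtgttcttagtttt
The Mcm6 window held 5 matches, of which 4 form 2 pairs that share letters, TTGGCGC running into the reverse complement of TTCGCGC. The Cdc6, Prim1 and Rpa2 windows held 1 match each. In contrast, the windows of Tyms, Dut and Rfc5, whose differences between the gates are among the 5 with the smallest p, held none of these letters.

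The comparison of the gates asks whether T cells with an active Tcf7 reporter carried more or less of the replication programme than their reporter-negative counterparts in the same kind of inflamed colon. The mean level was higher in GFP-negative cells for nearly every member. Cdc6 stood 3.53-fold higher there, Rrm2 2.69-fold, Tyms 2.34-fold and Mcm6 1.69-fold, as ratios of gate means. Of the 46 members that passed the expression filter, 44 had a negative log2 fold change (GFP-positive minus GFP-negative) and 2, Cdt1 and Rfc1, a positive one, where 48.4% of all 11074 tested genes were negative. The median log2 fold change of the members was -0.74, with a range of -1.81 to 0.34, beside 0.02 for all tested genes. The median ratio of gate means of the members was 1.68.

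No member passed an adjusted p of 0.05 in edgeR's quasi-likelihood test, the smallest adjusted p being 0.107, for Tyms. Over all genes that test called 12 (0.108%), 8 of them lower in GFP-positive cells (0.0722%). At an unadjusted edgeR p below 0.05, 22 of the 46 members were lower in GFP-positive cells and 0 were higher, where 5.97% of all tested genes were lower and 4.31% higher. DESeq2 called 6 members, Cdc6, Dut, Mcm6, Rfc5, Rrm2 and Tyms, all lower in GFP-positive cells, with 1.81% of all genes called, and limma-voom called 0, with 0.163%. In 13 members all 3 GFP-negative libraries lay above all 3 GFP-positive ones, where 8.80% of all tested genes did, and no member showed the opposite, where 7.25% of genes did.

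**Figure D1:**
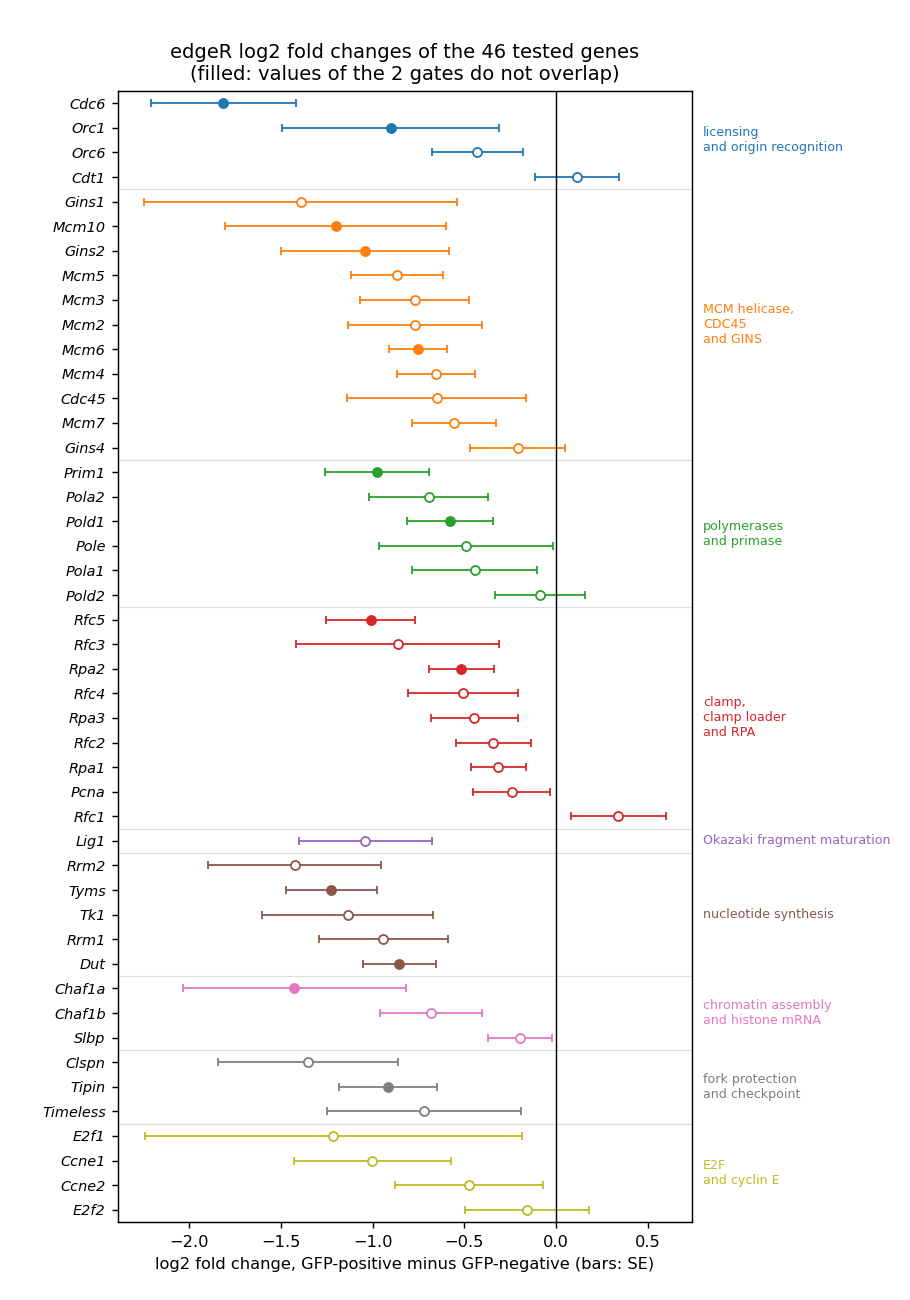
Log2 fold change (GFP-positive minus GFP-negative, edgeR) of the 46 tested members, grouped by role, with standard errors as bars. All points but those of Cdt1 (0.11) and Rfc1 (0.34) lie left of 0, and the lowest is Cdc6 at -1.81.

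Origin licensing puts the MCM helicase on chromatin in G1. Cdc6 (ENSMUSG00000017499.15, chr11:98907801-98923940, plus strand, mm10), the ATPase that loads the helicase together with the origin recognition complex and CDT1, stood at 16.7, 30.02 and 33.8 CPM in GFP-negative and at 5.196, 7.82 and 9.75 CPM in GFP-positive replicates 1 to 3. All GFP-negative libraries lay above all GFP-positive ones, and its log2 fold change, -1.81 ± 0.40 (SE), was the most negative of the members (edgeR adjusted p = 0.118). Its promoter, printed above, holds a single match 138 bases before the RefSeq start, which lies downstream of the GENCODE M21 gene start given here, so that the match falls inside the M21 gene. Orc1, the largest subunit of the origin recognition complex, stood at 6.59, 7.28 and 7.46 CPM in GFP-negative and at 2.42, 3.91 and 5.02 CPM in GFP-positive replicates 1 to 3. The gates of Orc1 did not overlap either, on 14 to 35 counts per library, and its log2 fold change was -0.90 ± 0.59 (SE) with an edgeR adjusted p of 0.667. Orc6, another subunit, stood at 44.2, 45.7 and 69.7 CPM in GFP-negative and at 36.9, 47.1 and 34.6 CPM in GFP-positive replicates 1 to 3, and its gates overlapped, GFP-negative replicate 3 being the highest library. Cdt1, the partner of CDC6 in loading, stood at 40.3, 34.1 and 50.7 CPM in GFP-negative and at 42.4, 42.3 and 50.3 CPM in GFP-positive replicates 1 to 3. The ranges of Cdt1 overlapped widely, and its log2 fold change was 0.11 ± 0.23 (SE; edgeR adjusted p = 0.914). Within licensing, the lowest and highest log2 fold changes thus belonged to CDC6 and CDT1, partners in the same step.

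The MCM2 to MCM7 ring, completed by CDC45 and the GINS complex, unwinds DNA at the fork. All 11 members of this role had negative log2 fold changes, with a median of -0.77, and 6 had an unadjusted edgeR p below 0.05. Of all tested genes, 5.97% were lower in GFP-positive cells at that p. Mcm6 (ENSMUSG00000026355.11, chr1:128331590-128359664, minus strand) stood at 185, 257 and 259 CPM in GFP-negative and at 138, 132 and 146 CPM in GFP-positive replicates 1 to 3. Its GFP-positive libraries lay close together and below every GFP-negative one, and its log2 fold change was -0.75 ± 0.16 (SE; edgeR adjusted p = 0.113). The 5 other ring genes had log2 fold changes of -0.77 (Mcm2), -0.77 (Mcm3), -0.65 (Mcm4), -0.87 (Mcm5) and -0.56 (Mcm7), and their gates overlapped.

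Levels of different genes were compared as deposited TPM (a length-corrected share of each library's transcripts). Summed over the 6 ring genes, the level was 366.8, 637 and 661 TPM for GFP-negative and 328, 353 and 285 TPM for GFP-positive replicates 1 to 3. GFP-negative replicate 1 lay near the GFP-positive libraries and the other GFP-negative libraries far above them, and the gates did not overlap (555 ± 163 against 322 ± 34.4 TPM, SD, n = 3 each; ratio 1.72). Although the subunits sit in the ring in equal number, their deposited TPM were unequal, and the order was partly shared by all libraries. By TPM, Mcm6 was the highest of the 6 and Mcm2 the lowest in every library, with Mcm4 next to the highest in every library. The ratio of highest to lowest TPM ran from 2.31 to 4.41. Mcm2 has the most annotated exon bases of the 6, 6956 against 3589 to 4666, so its place depends on the length used. Without a length correction, its mean over the 6 libraries (92.8 CPM) lay above those of Mcm3 (87.4 CPM) and Mcm5 (83.7 CPM). Mcm6 was the highest there too, at 186 CPM.

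**Figure D2:**
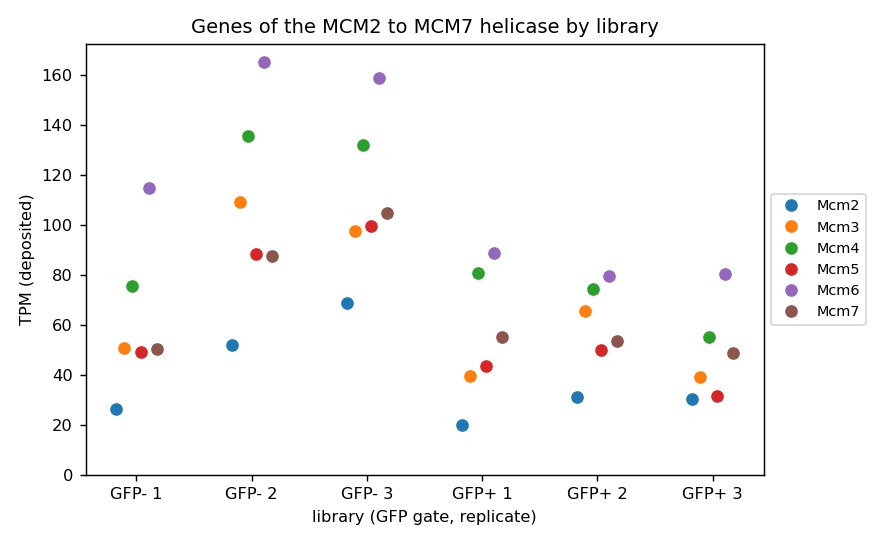
Deposited TPM of Mcm2 to Mcm7 (colours) in each library, on a linear axis from 0. Mcm6 is the highest and Mcm2 the lowest point in each of the 6 libraries, and the sum over the genes runs from 285 to 661 TPM. Mcm2 has the most annotated exon bases of these genes (6956), on which its place by TPM depends.

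Of the other helicase factors, 2 were without overlap between the gates, where 8.80% of all tested genes were lower without overlap. Mcm10, which helps to activate the assembled helicase, stood at 6.59, 10.2 and 6.36 CPM in GFP-negative and at 4.68, 2.76 and 2.58 CPM in GFP-positive replicates 1 to 3, and Gins2, a GINS subunit, at 10.9, 11.8 and 11.8 CPM in GFP-negative and at 6.06, 4.598 and 6.02 CPM in GFP-positive replicates 1 to 3. In each, all GFP-negative libraries were above all GFP-positive ones. Their log2 fold changes were -1.20 ± 0.60 (SE) and -1.04 ± 0.46 (SE), with edgeR adjusted p of 0.536 and 0.46. Of the exon bases of Gins2, 67.3% overlap Gse1, which had 20 to 81 counts per library, beside 20 to 56 for Gins2. Since the library preparation does not record the strand, reads of the shared bases cannot be told apart. Gins1 stood at 5.43, 7.96 and 10.1 CPM in GFP-negative and at 1.04, 0.4598 and 7.17 CPM in GFP-positive replicates 1 to 3. GFP-positive replicate 3 was within the GFP-negative range of Gins1 and the other GFP-positive libraries far below it, which leaves a log2 fold change of -1.39 ± 0.85 (SE). Cdc45 and Gins4 overlapped between the gates, with log2 fold changes of -0.65 and -0.21.

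Primase and the polymerases alpha, delta and epsilon begin and extend the new strands. All 6 genes had negative log2 fold changes, with a median of -0.53. Prim1, the catalytic primase subunit, stood at 29.9, 49.8 and 53.3 CPM in GFP-negative and at 18.2, 22.8 and 26.4 CPM in GFP-positive replicates 1 to 3, without overlap, and its log2 difference was -0.98 ± 0.28 (SE; edgeR adjusted p = 0.229). In its promoter, printed above, the matched letters begin 15 bases before the RefSeq start. The GENCODE M21 gene begins further upstream, at chr10:128015168, so that this match too falls inside the M21 gene. Pold1, the catalytic subunit of polymerase delta, stood at 36.1, 50.3 and 53.7 CPM in GFP-negative and at 29.6, 32.9 and 31.3 CPM in GFP-positive replicates 1 to 3, also without overlap, and its log2 fold change was -0.58 ± 0.24 (SE; edgeR adjusted p = 0.417). Pold2, the accessory subunit of the same enzyme, stood at 45.7, 82.5 and 66.4 CPM in GFP-negative and at 65.1, 70.6 and 47.3 CPM in GFP-positive replicates 1 to 3. For Pold2 the GFP-positive libraries lay within the GFP-negative range, and the log2 fold change, -0.09 ± 0.25 (SE), was near 0 (edgeR adjusted p = 0.937). Pola1 and Pola2, subunits of polymerase alpha, and Pole, the catalytic subunit of polymerase epsilon, had log2 fold changes of -0.45, -0.69 and -0.49 with overlapping gates.

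PCNA is the sliding clamp that holds polymerases on DNA, the RFC complex loads it, and RPA coats single-stranded DNA. This role had a median log2 fold change of -0.45, with 8 of 9 genes negative. Rfc5 (ENSMUSG00000029363.14, chr5:117378103-117389047, minus strand), a small subunit of the loader, stood at 51.6, 59.1 and 75.4 CPM in GFP-negative and at 24.2, 31.5 and 36.4 CPM in GFP-positive replicates 1 to 3. Every GFP-negative library of Rfc5 was above every GFP-positive one, and its log2 fold change was -1.01 ± 0.24 (SE; edgeR adjusted p = 0.142); 10.7% of its exon bases overlap Wsb2. Rpa2 stood at 81.6, 95.7 and 91.003 CPM in GFP-negative and at 70.5, 62.1 and 54.9 CPM in GFP-positive replicates 1 to 3, again without overlap, and its log2 fold change was -0.52 ± 0.18 (SE; edgeR adjusted p = 0.325). Pcna stood at 135, 194 and 259.6 CPM in GFP-negative and at 157, 187 and 153 CPM in GFP-positive replicates 1 to 3. In Pcna GFP-negative replicate 1 was the lowest of the 6 libraries and replicate 3 the highest, and the log2 fold change was -0.24 ± 0.21 (SE; edgeR adjusted p = 0.76). The annotation holds the pseudogenes Pcna-ps1 and Pcna-ps2, with which reads could be shared.

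The subunits of the clamp loader did not all have the same sign. Rfc1, the large subunit, stood at 25.004, 32.1 and 28.5 CPM in GFP-negative and at 45.2, 33.8 and 29.1 CPM in GFP-positive replicates 1 to 3, and GFP-positive replicate 1 was the highest library. Its log2 fold change, 0.34 ± 0.26 (SE), was the highest of all members (edgeR adjusted p = 0.718). Rfc3 stood at 36.4, 43.4 and 45.2 CPM in GFP-negative and at 6.06, 24.1 and 38.3 CPM in GFP-positive replicates 1 to 3, and its GFP-positive libraries alone spread more widely than the gate means lay apart. Rfc2, Rfc4, Rpa1 and Rpa3 overlapped between the gates, with log2 fold changes of -0.34, -0.51, -0.32 and -0.45. Of the exon bases of Rfc4, 12.7% overlap Eif4a2, which had 1300 to 2755 counts per library. For Rfc2, 15.1% overlap Lat2, which had 3 to 45 counts. In all, 17 members share exon bases with another annotated gene, and not each of these overlaps is listed here.

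Okazaki fragments on the lagging strand are trimmed by the flap nuclease FEN1 and joined by the ligase LIG1. Lig1 stood at 30.2, 62.1 and 67.3 CPM in GFP-negative and at 14.7, 34.3 and 28.7 CPM in GFP-positive replicates 1 to 3. Its gates overlapped through GFP-negative replicate 1, which lay below GFP-positive replicate 2 alone, and the log2 fold change was -1.04 ± 0.36 (SE; edgeR adjusted p = 0.345). Fen1 is the single member that did not pass the filter, with 8, 9 and 5 counts in GFP-negative and 7, 5 and 19 counts in GFP-positive replicates 1 to 3, and it was not tested. Of its exon bases, 78.8% overlap the antisense gene Gm10143, which itself had 1 to 15 counts, and 5.37% overlap Tmem258, which had 638 to 1298 counts per library. The sources used here do not say how the authors' counter treated reads of such overlaps.

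In nucleotide synthesis all tested genes, 5 of 5, had an unadjusted edgeR p below 0.05, and the median log2 fold change was -1.14. Among all 11074 tested genes, 5.97% were lower in GFP-positive cells at that p. Tyms (ENSMUSG00000025747.12, chr5:30058202-30073617, minus strand), thymidylate synthase, which makes dTMP from dUMP, stood at 56.8, 102 and 107 CPM in GFP-negative and at 37.4, 42.1 and 34.3 CPM in GFP-positive replicates 1 to 3. The highest GFP-positive library lay below the lowest GFP-negative one, and the log2 fold change was -1.23 ± 0.25 (SE), with the smallest edgeR adjusted p of the members (0.107); a pseudogene, Tyms-ps, is annotated. Dut (ENSMUSG00000027203.15, chr2:125247190-125258608, plus strand), the dUTPase that supplies dUMP and keeps uracil out of DNA, stood at 87.6, 119.8 and 141 CPM in GFP-negative and at 61.3, 57.9 and 73.3 CPM in GFP-positive replicates 1 to 3. Dut did not overlap between the gates either, and its log2 fold change was -0.85 ± 0.20 (SE; edgeR adjusted p = 0.131).

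Ribonucleotide reductase, built from RRM1 and RRM2, makes the deoxynucleotides themselves. Rrm1 stood at 83.7, 141 and 193 CPM in GFP-negative and at 45.7, 86.7 and 85.1 CPM in GFP-positive replicates 1 to 3, and Rrm2 stood at 66.5, 155 and 209 CPM in GFP-negative and at 35.3, 54.3 and 70.1 CPM in GFP-positive replicates 1 to 3. For both, GFP-negative replicate 1 lay within the GFP-positive range and GFP-negative replicate 3 was the highest library. The log2 fold changes were -0.94 ± 0.35 (SE) for Rrm1 and -1.43 ± 0.47 (SE) for Rrm2, with edgeR adjusted p of 0.416 and 0.391. Tk1, the thymidine kinase of the salvage pathway, stood at 26.7, 40.9 and 76.1 CPM in GFP-negative and at 11.1, 20.7 and 33.3 CPM in GFP-positive replicates 1 to 3, and its gates overlapped through the same GFP-negative replicate 1.

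**Figure D3:**
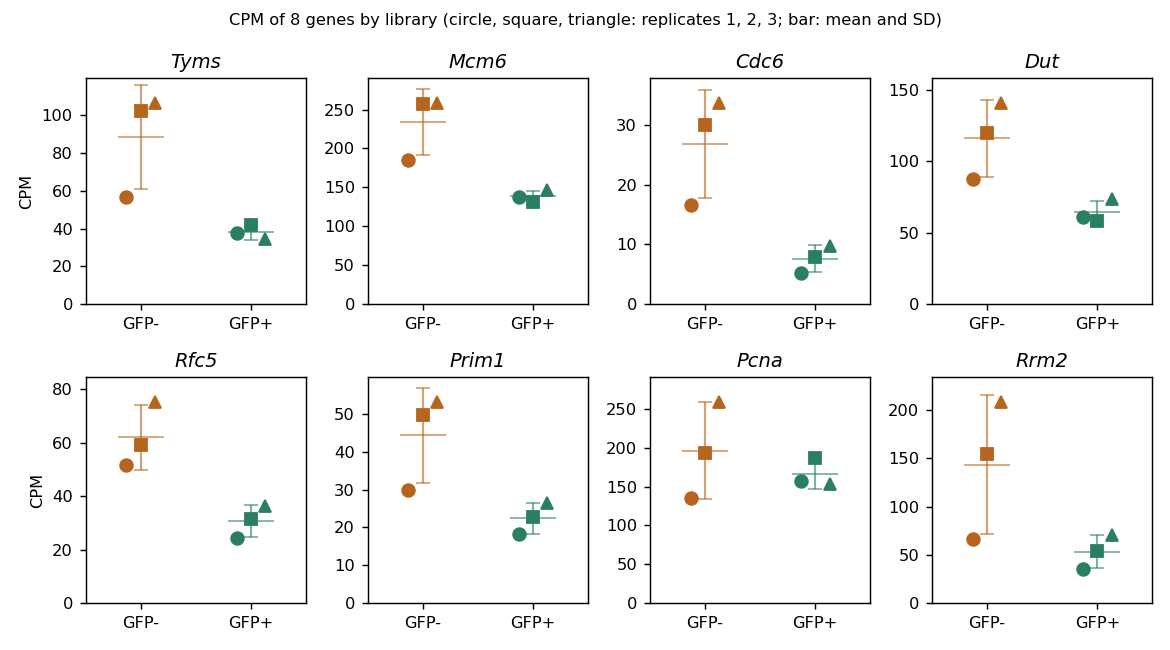
CPM of single members in each library, by gate, with horizontal lines for gate means and vertical bars for SDs (n = 3 libraries each); every axis starts at 0. For Tyms the GFP-positive libraries lie at 34.3 to 42.1 CPM, below the GFP-negative ones at 56.8 to 107 CPM, whereas for Pcna the GFP-positive libraries lie within the GFP-negative range of 135 to 259.6 CPM.

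Chromatin assembly factor 1 places histones behind the fork, and SLBP binds the stem-loop of histone mRNAs, which are made in S phase. Chaf1a, the large subunit of the assembly factor, stood at 7.75, 7.504 and 24.3 CPM in GFP-negative and at 7.101, 2.299 and 5.16 CPM in GFP-positive replicates 1 to 3. The gates were separated by a narrow margin, and GFP-negative replicate 3 stood far above the other libraries. Of its exon bases, 52.5% overlap Ubxn6, which had 36 to 53 counts per library, beside 10 to 111 for Chaf1a. The log2 fold change of Chaf1a was -1.43 ± 0.61 (SE; edgeR adjusted p = 0.448). Chaf1b, the middle subunit, stood at 25.6, 42.98 and 45.8 CPM in GFP-negative and at 22.5, 22.8 and 25.96 CPM in GFP-positive replicates 1 to 3, and its log2 fold change was -0.68 ± 0.28 (SE; edgeR adjusted p = 0.417). Its gates overlapped by less than 1 CPM, through GFP-negative replicate 1 and GFP-positive replicate 3. Slbp stood at 143, 189 and 199 CPM in GFP-negative and at 176, 161 and 127 CPM in GFP-positive replicates 1 to 3, with overlapping gates, and its log2 difference was -0.20 ± 0.17 (SE; edgeR adjusted p = 0.762).

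Timeless and TIPIN travel with the fork and, with claspin, pass on the replication checkpoint signal. Tipin stood at 64.4, 86.9 and 117 CPM in GFP-negative and at 31.7, 55.2 and 55.1 CPM in GFP-positive replicates 1 to 3, without overlap, and its log2 fold change was -0.92 ± 0.27 (SE; edgeR adjusted p = 0.234). Clspn, which encodes claspin, stood at 10.7, 20.2 and 34.2 CPM in GFP-negative and at 4.68, 8.05 and 12.6 CPM in GFP-positive replicates 1 to 3. Its gates overlapped through GFP-negative replicate 1 and GFP-positive replicate 3, and its log2 fold change was -1.35 ± 0.49 (SE; edgeR adjusted p = 0.358). Timeless stood at 11.4, 18.9 and 20.2 CPM in GFP-negative and at 4.33, 6.67 and 19.4 CPM in GFP-positive replicates 1 to 3. GFP-positive replicate 3 lay within the GFP-negative range of Timeless while the other GFP-positive libraries were below every GFP-negative one, and the log2 fold change was -0.72 ± 0.53 (SE; edgeR adjusted p = 0.71).

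All 4 genes that drive the switch overlapped between the gates. Ccne1, one of the cyclins E, stood at 12.02, 25.5 and 33.99 CPM in GFP-negative and at 7.79, 16.3 and 11.6 CPM in GFP-positive replicates 1 to 3, with an overlap through GFP-negative replicate 1, and differed by -1.002 ± 0.43 (SE) on the log2 scale (edgeR adjusted p = 0.449). E2f2, an activating E2F, stood at 14.5, 20.5 and 26.8 CPM in GFP-negative and at 14.2, 19.5 and 21.5 CPM in GFP-positive replicates 1 to 3. The ranges of E2f2 overlapped for most of their width, and its log2 fold change was -0.16 ± 0.34 (SE; edgeR adjusted p = 0.918). E2f1, the best known activating E2F, stood at 10.1, 24.3 and 25.7 CPM in GFP-negative and at 0.866, 3.91 and 20.7 CPM in GFP-positive replicates 1 to 3, so that GFP-positive libraries 1 and 2 were below all GFP-negative ones and GFP-positive replicate 3 was among them. Of all members, E2f1 had the widest error, at -1.22 ± 1.03 (SE) on the log2 scale (edgeR adjusted p = 0.766). Ccne2, the other cyclin E, had a log2 fold change of -0.47 with overlapping gates, and 17.4% of its exon bases overlap Ints8.

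By deposited TPM, the member with the highest mean was Pcna, at 238 ± 73.6 TPM in GFP-negative and 193 ± 28.1 TPM in GFP-positive libraries (SD, n = 3 each). Mcm6 came next, at 146 ± 27.5 and 82.8 ± 5.05 TPM, and these 2 genes were followed by Dut (a mean of 107 TPM over all 6 libraries), Tipin (104 TPM) and Rrm2 (102 TPM). The lowest were Fen1 (1.90 TPM), Mcm10 (2.09 TPM) and Pole (2.35 TPM), and the median member stood at 26.6 TPM. These ranks depend on the length used, as the annotated exon bases of the members ran from 1136 (Rpa3) to 11160 (Pole). By mean CPM over the 6 libraries, Mcm6 (186) stood above Pcna (181). Of these 2 genes, Pcna had its GFP-positive libraries within the GFP-negative range, while Mcm6 was among those whose gates did not overlap. Of the 46 tested members, 44 reached the level of the filter (2.05 CPM) in all 3 libraries of both gates. The exceptions were Gins1 and E2f1, which reached it in all 3 GFP-negative libraries but in 1 and 2 of the GFP-positive libraries.

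**Figure D4:**
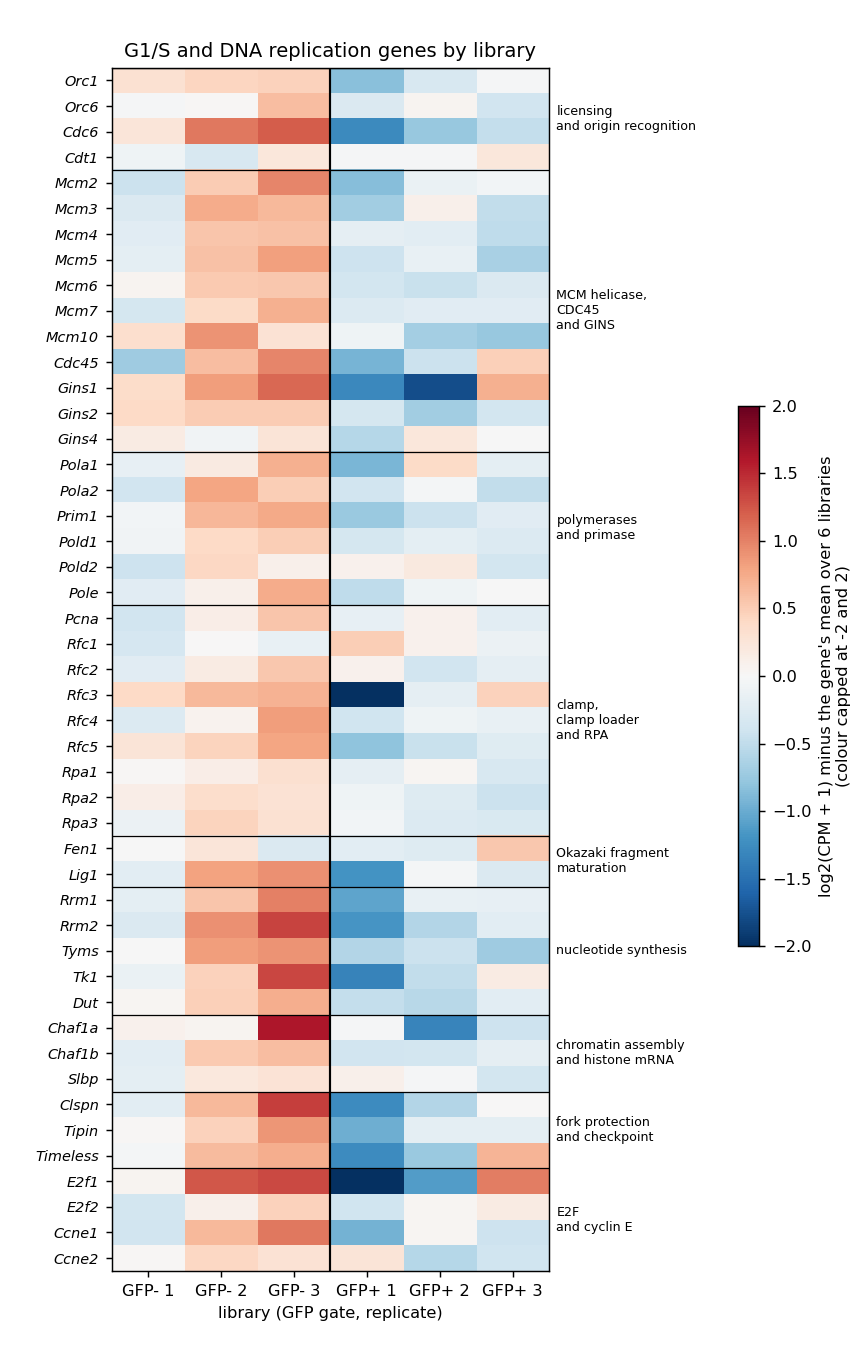
Heat map of log2(CPM + 1) minus each gene's mean over the 6 libraries, for all 47 members in order of role, with colours capped at -2 and 2. GFP-negative replicates 2 and 3 are red for most genes while GFP-negative replicate 1 is nearer to the GFP-positive libraries. GFP-positive replicates 1, 2 and 3 are above GFP-negative replicate 1 in 11, 22 and 20 of 46 tested members. GFP-positive replicate 3 is high for Gins1, Timeless and E2f1.

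For the members, the GFP-negative libraries differed among themselves by about as much as the gates did. All members together held 0.222%, 0.337% and 0.388% of the counts of GFP-negative and 0.194%, 0.215% and 0.194% of those of GFP-positive replicates 1 to 3. The GFP-positive libraries lay close together (0.201% ± 0.0119, SD, n = 3) and the GFP-negative ones far apart (0.315% ± 0.0852), and GFP-negative replicate 1 exceeded the highest GFP-positive library by little. GFP-negative replicate 1 was the lowest of its gate in 42 of 46 tested members, and GFP-negative replicate 3 the highest of all 6 libraries in 38. Replicate 1 of the GFP-positive gate was likewise the lowest of its gate in 25 members, and the lowest of all 6 libraries in 24. From GFP-negative replicate 1 to GFP-negative replicate 3 the median ratio was 1.80, with 15 members at 2-fold or more, which is about the size of the difference between the gates. The CD8 marker Cd8a and Tcf7 also differed among these libraries, Cd8a being highest in GFP-negative replicate 1 and Tcf7 lowest in GFP-negative replicate 3, and their part in the result was not tested.

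Of the 33 tested members whose gates overlapped, 25 had just 1 GFP-negative library, replicate 1, reaching into the GFP-positive range. Some of these, such as Gins1 and Lig1, also overlapped through a single GFP-positive library, so that leaving out either one parts the gates. When GFP-negative replicate 1 was left out, 38 members did not overlap, where 15.3% of all tested genes were lower without overlap. With any other library left out, between 13 and 21 did, 20 when GFP-positive replicate 2 was the one left out and 21 when it was GFP-positive replicate 3, where 12.5% to 15.8% of all genes did. The count of 22 members at an unadjusted edgeR p below 0.05 became 11 when GFP-negative replicate 2 was left out, 10 when replicate 3 of that gate was, and 13 when GFP-positive replicate 1 was, where 3.74%, 3.71% and 5.15% of all tested genes were lower. GFP-positive replicate 3 also had the highest share of counts in the markers of epithelium (0.0229%, against at most 0.00482% in the other libraries), of stroma and endothelium (0.0329%, against at most 0.00106%) and of NK and innate lymphoid cells (0.0752%, against at most 0.00777%). That library stood at least 2-fold above both other GFP-positive libraries in 3 members, Gins1, Timeless and E2f1, and the part of RNA from those cell types or from myeloid cells in these values was not tested. Without it the median log2 fold change of the members was -0.76 and 23 had an unadjusted edgeR p below 0.05, where 7.56% of all tested genes were lower.

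Genes that act beside the members were read from lists of the same kind. Of 64 other replication and nucleotide genes, 61 were tested, 41 were negative, and the median log2 fold change was -0.21. At an unadjusted edgeR p below 0.05, 10 of them were lower and 3 higher in GFP-positive cells. The shares of all tested genes at that p were 5.97% lower and 4.31% higher. In this list 0 passed the adjusted threshold. Among those with the smallest p were Uhrf1, which guides maintenance methylation, at 59.8 ± 26.2 against 17.8 ± 7.01 CPM, and Wdhd1, a fork protein, at 27.1 ± 8.77 against 12.0 ± 1.52 CPM (GFP-negative against GFP-positive, SD, n = 3 each). Their edgeR adjusted p were 0.124 and 0.23. Leaving out GFP-negative replicate 3 brought the list median to -0.12, and leaving out GFP-positive replicate 3 brought it to -0.11.

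Of 34 regulators of the G1/S transition outside the members, 31 were tested, 26 were negative, and the median was -0.32, or -0.48 without GFP-negative replicate 1. At an unadjusted edgeR p below 0.05, 8 were lower and 0 higher in GFP-positive cells, and 0 passed the adjusted threshold. Beside this, 5.97% of all tested genes were lower and 4.31% higher at that unadjusted p. Rb1, the retinoblastoma protein that restrains E2F, stood at 51.4 ± 13.2 against 21.9 ± 1.58 CPM, E2f4, a repressive E2F, at 90.9 ± 13.2 against 52.2 ± 7.87 CPM, and Gmnn, geminin, which blocks CDT1 after licensing, at 61.3 ± 18.5 against 27.8 ± 7.99 CPM (GFP-negative against GFP-positive, SD, n = 3 each). Their edgeR adjusted p were 0.107, 0.149 and 0.155, and at least Rb1 and Gmnn encode inhibitors rather than drivers of replication.

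Genes of G2 and mitosis, which act after replication, were 29 of 30 negative with a median of -1.13, or -0.74 without GFP-negative replicate 3. At an unadjusted edgeR p below 0.05, 18 of the 30 were lower and 0 higher in GFP-positive cells, and 0 passed the adjusted threshold. Over all tested genes, 5.97% were lower and 4.31% higher at that unadjusted p. Anln, anillin of the cleavage furrow, stood at 14.8 ± 1.67 against 2.95 ± 1.51 CPM, Mad2l1, a spindle checkpoint protein, at 105 ± 25.1 against 56.1 ± 6.58 CPM, and Cenpa, the centromeric histone, at 171 ± 45.5 against 94.3 ± 19.2 CPM (GFP-negative against GFP-positive, SD, n = 3 each). Their edgeR adjusted p were 0.118, 0.125 and 0.159. E2F-type letters were found in 3 of 25 windows of this list (12.0%), in 29 of 68 windows of the other replication and nucleotide genes (42.6%) and in 11 of 36 windows of the regulators (30.6%), beside the 53.3% given for the members. The difference between the mean log2 CPM of the members and that of the mitotic genes was 0.33, 0.07 and -0.22 for the GFP-negative libraries and 0.61, 0.25 and 0.34 for the GFP-positive ones, in order of replicate number. These ranges overlapped.

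**Figure D5:**
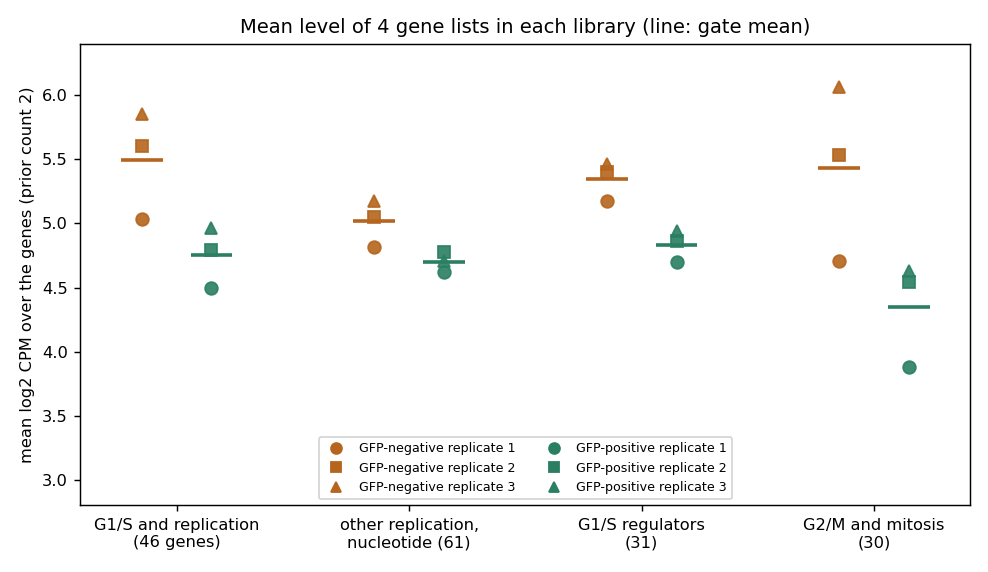
Mean log2 CPM of the members and of the 3 other lists in each library, by gate. The members lie at 5.04, 5.605 and 5.85 for the GFP-negative libraries and at 4.49, 4.796 and 4.97 for the GFP-positive ones, so that the gates do not overlap, with GFP-negative replicate 1 next to the GFP-positive libraries.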

How the data were processed

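Cells of both gates were profiled by bulk RNA-seq, with groups and replicate numbers taken from the sample titles. cDNA made with oligo-dT and random hexamers was amplified by PCR and tagged without strand or molecular identifiers, per the labels' protocols, so counting error alone understates the noise of low genes. The authors deposited whole-number counts per gene and a TPM table. The submitters' processing notes name fastp 0.23.3, STAR 2.7.10b, SAMtools 1.17, deepTools 3.5.1 and mm10; the sources used here name neither the read counter nor the gene annotation.

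The deposited counts were tested with edgeR 4.0.16 in R 4.3.3 (quasi-likelihood F-test, robust, TMM factors, default expression filter with a minimum count of 10, gate as the only term). P-values were adjusted by Benjamini-Hochberg over 11074 genes, with a threshold of 0.05. CPM refers to each library's TMM-scaled total over tested genes, and the SE was derived from the log2 fold change and its F. Mean log2 CPM used a prior count of 2. The deposited TPM served only to compare levels between genes and as an alternative. No pair of libraries was a duplicate, with chi-square over degrees of freedom at 11.4 or more for libraries of 1 gate.

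The members and all gene lists were chosen with earlier results of these data known, so they are described by counts and medians and no test was made over a list. All members could be named. Values in every library were given for the member of each role with the highest mean CPM, the one with the smallest p, every member without overlap between the gates, and members near the expression filter. Cdt1, Rfc1, Rfc3, Rrm2, Tk1, Clspn and Timeless were added after their values were seen. Outside the members, the 3 genes of each list with the smallest p were named, except that some genes are not reported here. Coordinates and exon overlaps are those of GENCODE M21 on mm10 (1-based), in which all 47 identifiers were found with their version; promoter windows are from RefSeq.

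The alternatives tried were library size alone, RLE factors, no filter, at least 1 CPM in 3 libraries, DESeq2 1.42.0, limma-voom (limma 3.58.1), a replicate block, limma with pseudocounts of 1 and of 0.1 on log2 TPM (genes of mean 1 TPM or more, and for pseudocount 1 also all genes), and leaving out each library. The counts of members called, lower at an unadjusted p below 0.05, negative or without overlap under these settings were added after seeing the data.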

Additional observations from a re-analysis of the deposited data

How the results depend on the processing

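The median log2 fold change of the members stayed negative under all 16 alternatives, at -0.71 to -0.78 when all libraries were kept and at -0.96 to -0.57 when a library was left out, and 43 to 45 members were negative. Of 736 log2 fold changes of members under alternatives, 705 kept their sign and their side of the threshold, 26 kept their sign and passed the threshold, and 5, in 4 members, changed sign, all with a library left out. These were Cdt1 (-0.020 to 0.28 with a library left out, negative without GFP-negative replicate 2), Pold2 (-0.29 to 0.11, positive without GFP-negative replicate 2 and, at 0.07, without GFP-positive replicate 3), Pcna (-0.46 to 0.018) and E2f2 (-0.36 to 0.080), the last 2 positive without GFP-negative replicate 3.

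The number of calls depended on the setting. Members past an adjusted p of 0.05 numbered 0 of 46 as reported and 15 of 47 with no expression filter. They numbered 6 of 46 with DESeq2 and 5 of 46 with the replicate block (Cdc6, Mcm6, Rrm1, Rrm2 and Tyms). Whichever library was left out, the number was 0. Over all genes, 12 of 11074 were called as reported (0.108%) and 19 of 11074 with library size alone. With no expression filter 373 of 20982 were called, with DESeq2 200 of 11074 (1.81%) and with the replicate block 81 of 11074. Limma on log2(TPM + 1) called 1, of 14169 genes when filtered and of 20942 when not, and log2(TPM + 0.1) called 0 of 14169. With a library left out this count was 0 to 42, with 1 call when it was GFP-negative replicate 1, 3 calls for GFP-negative replicate 2, 42 for GFP-positive replicate 3 and 0 for each of the others. The cause was not tested. Members lower at an unadjusted p below 0.05 numbered 10 to 29 (where 3.71% to 7.56% of all tested genes were lower, and 5.63% in the fit that gave 29), those without overlap 13 to 38, and the median of the G1/S regulators was -0.48 to -0.32, with a library left out.

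Same-numbered libraries of the gates deviated together with correlations of 0.104, 0.0971 and 0.104 across genes and of 0.403, 0.189 and 0.315 across the members, and each library correlated best with its own number, a hint from the data and not from the design. As 1 value across genes lay under 0.1 and no label ties the numbers to mice, the numbers were not taken as pairs. The lowest counts per library, 2 for Gins1, 5 for E2f1, 10 for Chaf1a, 12 for Mcm10 and 14 for Orc1, limit what their fold changes can show.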
